A study of Mus musculus with 2 samples.

Results

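Netrins and their receptors were followed through 2 RNA libraries of the mouse hindbrain at embryonic day 12.5. The group held 10 genes, chosen by symbol and not by any measured value: the netrins Ntn1, Ntn4, Ntng1 and Ntng2, the paired receptors Dcc and Neo1, and the receptors Unc5a, Unc5b, Unc5c and Unc5d. They were 10 of the 43346 Ensembl genes quantified, and each was found in both libraries. Both samples were hindbrain of B6NCrl embryos of both sexes, pooled from 120 embryos for replicate 1 and from 88 embryos for replicate 2. No mutation or agent is named in the labels. No genotype, treatment or other stage was compared, so the design gives levels with their spread between pools, and every p-value below compares 2 libraries and not 2 conditions. Each pool averages many embryos and every cell type of the dissected tissue.

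Netrin-1 is a secreted, laminin-related protein made by the floor plate and by progenitors of the ventricular zone, and it guides commissural axons toward the midline. Dcc is the receptor through which axons are attracted to netrin-1, Neo1 (neogenin) is its paralogue and also binds repulsive guidance molecules, and Unc5 receptors mediate repulsion, alone or together with Dcc. Netrin-4 is a basement membrane protein, and the netrin-G proteins are membrane-anchored relatives that bind Lrrc4 family proteins rather than Dcc.

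The labelled tissue was checked against markers of its region. Of 10 hindbrain markers, 9 reached 1 TPM (a level scaled by transcript length and library total) in both libraries, and the highest by mean was Hoxb2 at 47.5 TPM in replicate 1 and 59.7 in replicate 2. Values below are given in that order. Of 8 forebrain markers 3 did so. The summed level was 248.8 and 300.0 TPM for the hindbrain list and 21.7 and 20.0 TPM for the forebrain list. Otp, at 12.87 and 9.08 TPM, was the highest of the forebrain list. By the exact binomial test described below, 6 of the 10 hindbrain markers were higher in replicate 2 and 1 was lower. In the forebrain list 2 were higher and 3 lower, where 10.7% of all genes were called higher and 9.68% lower. Nkx2-1 of the forebrain list, at 0.10 and 1.41 TPM, differed between the libraries also in the edgeR exact test (adjusted p = 6.5e-08). The libraries held 31633169 and 29766460 expected counts, the estimated number of fragments. Their counts differed by more than counting error (chi-square over degrees of freedom 8.27), with a common coefficient of variation of 9.02% between the pools, and they were counted as 2 replicates. In such bulk tissue, fewer cells of a type and less RNA per cell cannot be told apart.

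All 10 genes reached 1 TPM in both libraries, where 35.5% of Ensembl genes did. At 5 TPM, 5 remained (Dcc, Ntn1, Neo1, Unc5c and Ntng1), where 26.6% of Ensembl genes did. The lowest value was 2.13 TPM for Ntng2 in replicate 1, where 3 counts, the upper limit for a gene with none, correspond to 0.124 TPM. Such limits and all count intervals here cover counting error only, since amplified fragments are not independent molecules.

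Among the 4 netrins of the group, Ntn1 stood far above the rest. Ntn1 (chromosome 11, 68209364 to 68400823, minus strand) was at 47.4 and 40.9 TPM, from 4296 and 3340 expected counts. It was higher than 75.1% and 71.1% of the genes detected in both libraries. It was the highest netrin in each library and held 73.6% ± 1.54 (SD, n = 2) of the summed TPM of the 4 netrins, which was 65.4 and 54.7 TPM.

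Ntng1 (chromosome 3, 109780040 to 110144011, minus strand), which encodes netrin-G1, was next at 13.2 and 8.78 TPM, from 638 and 588 expected counts. The library values lay far apart on the TPM scale, with a coefficient of variation of 28.3%, the widest of the 10 genes, while the counts hardly differed. This gap came from 1 short transcript, described with the transcripts below.

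Ntn4 (chromosome 10, 93640681 to 93747207, plus strand) was at 2.70 and 2.58 TPM, from 124 and 102 expected counts. Ntng2 (chromosome 2, 29194541 to 29253005, minus strand), which encodes netrin-G2, was at 2.13 and 2.50 TPM, from 51.4 and 60.9 expected counts. Both were low, and the range of each overlapped that of Unc5d. The exons of Ntng2 share 558 nt with 6530402F18Rik, a noncoding gene on the same strand that was credited with 153 and 120 counts, so the count of Ntng2 depends on how the authors divided fragments between these genes and is uncertain.

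Dcc was the highest of all 10 genes in each library. Dcc (chromosome 18, 71253634 to 72351069, minus strand) was at 49.2 and 54.8 TPM, from 4663 and 4796 expected counts, above 76.0% and 78.1% of detected genes. Neo1 (chromosome 9, 58874687 to 59036441, minus strand) was at 36.5 and 38.3 TPM, from 5046 and 4887 expected counts. Neo1 thus had more counts than Dcc but a lower level, because its transcript is longer in the files, at 7387 nt. The leading Dcc transcript, Dcc-202, was quantified at 5219 nt, but the later M21 annotation gives it 10323 nt. For Neo1-201, M21 gives 7379 nt. The place of Dcc above Neo1 thus depends on the annotated lengths, and levels with the M21 lengths were not computed. Within each library Dcc exceeded Neo1, by 1.35-fold in replicate 1 and 1.43-fold in replicate 2, a difference of 0.46 ± 0.06 (SD, n = 2) in log2(TPM+1). The difference was larger than its spread. With 2 values against 2, an exact permutation test cannot give a two-sided p below 0.333, so none was run.

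Unc5c led its family and the other Unc5 genes were low. Unc5c (chromosome 3, 141465216 to 141834924, plus strand) was at 16.3 and 16.5 TPM, from 1947 and 1693 expected counts. Unc5a (chromosome 13, 54949411 to 55006018, plus strand) was at 4.66 and 4.86 TPM, from 325 and 275 counts. Unc5b (chromosome 10, 60762593 to 60831581, minus strand), a receptor also known from endothelial tip cells, was at 3.54 and 2.73 TPM, from 386 and 275 counts. The values of Unc5a and Unc5b did not overlap. Unc5d (chromosome 8, 28646717 to 29219636, minus strand) was at 2.67 and 2.50 TPM, from 447 and 386 counts. Unc5c held 61.0% ± 1.40 of the summed Unc5 TPM, Unc5a 17.7% ± 0.824, Unc5b 11.6% ± 1.93 and Unc5d 9.61% ± 0.285 (SD, n = 2). The same order was found in both libraries.

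Receptors of the Dcc type outweighed those of the Unc5 type. Dcc and Neo1 summed to 85.7 and 93.2 TPM, and the 4 Unc5 genes to 27.2 and 26.6 TPM, a ratio of 3.15 and 3.51. Dcc and Neo1 therefore made up 76.9% ± 1.35 (SD, n = 2) of receptor TPM. Taken singly, Dcc exceeded Unc5c by 3.01-fold and 3.33-fold.

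**Figure D1:**
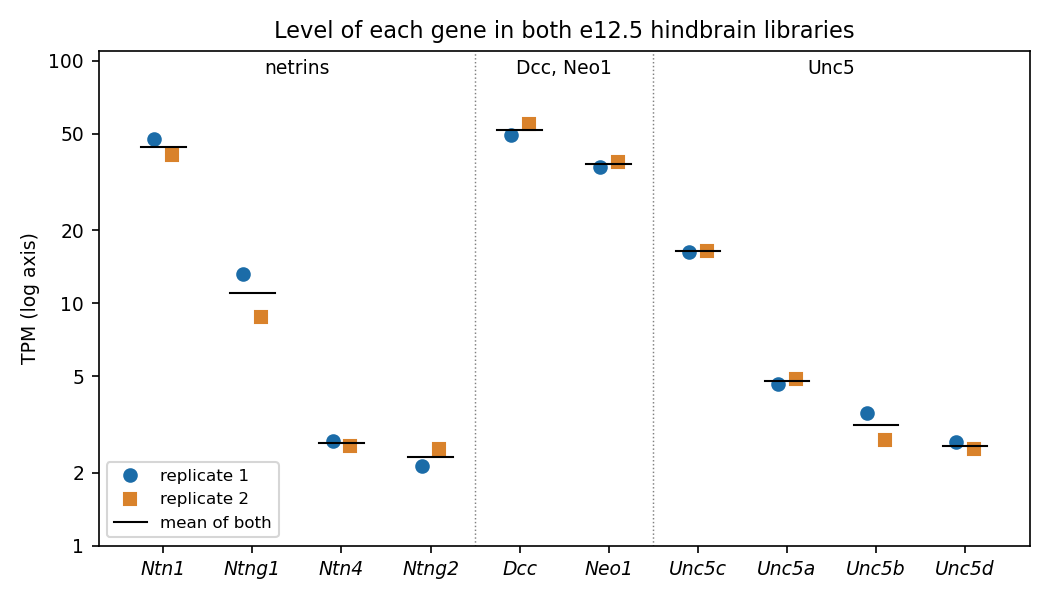
TPM of each gene (log axis) in replicate 1 (circles) and replicate 2 (squares) with the mean of both as a line, grouped as netrins, Dcc and Neo1, and Unc5 receptors. Dcc, Ntn1 and Neo1 lie between 36.5 and 54.8 TPM, Unc5c and Ntng1 between 8.78 and 16.5 TPM, and the other genes below 5 TPM.

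By mean TPM the order was Dcc, Ntn1, Neo1, Unc5c, Ntng1, Unc5a, Unc5b, Ntn4, Unc5d and Ntng2. Of the 9 neighbouring pairs, 7 had library values that did not overlap. Unc5d could not be placed among the last 3 genes, since its range overlapped that of Ntn4 and that of Ntng2, while the values of Ntn4 lay above those of Ntng2. The step from Neo1 to Unc5c was 2.28-fold and that from Ntng1 to Unc5a 2.30-fold, whereas Dcc exceeded Ntn1 by 1.18-fold. The place of Ntn1 above Neo1 rested in replicate 2 on a short transcript. Over transcripts of 1000 nt or longer, an alternative chosen after the data were seen, Ntn1 was at 38.9 and 32.6 TPM. Neo1 stayed at 36.5 and 38.3 TPM, so Ntn1 was above it in replicate 1 and below it in replicate 2. The mean of Ntn1 then lay below that of Neo1, but their ranges overlapped. Ntn4 moved from above Unc5d to last, at 1.61 TPM in mean.

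The transcript tables give the share of each gene's TPM in each annotated transcript as a percent. They carry 47 transcripts of the 10 genes. Dcc was mostly 1 transcript. Dcc-202 held 78.9% in replicate 1 and 78.7% in replicate 2, Dcc-201 held 16.3% and 17.1%, and Dcc-203, annotated as a retained intron, held 4.83% and 4.22%. The shares of Dcc were almost the same in both pools. In the M21 annotation the coding parts of the leading pair differ at exon 17 of 29, which is 233 nt long in Dcc-202 and 173 nt in Dcc-201. The longer form so carries 60 nt, or 20 codons, more. Alternative use of this stretch, which alters the linker between fibronectin repeats of the receptor, is known in Dcc. Dcc-202 made up 82.9% and 82.1% of the pair. The transcripts also differ in length outside the coding part, and the estimation error in the files is wide, with a posterior standard deviation of 140 counts for the 722 counts of Dcc-201 in replicate 1. The small spread between pools is thus not the error of the share.

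For Neo1 the share was 100% for Neo1-201 in both libraries, but the tables hold only that 1 transcript of the gene, so the value is fixed by the annotation. The later M21 annotation lists 6. Unc5b and Unc5d were likewise quantified as 1 transcript each, where M21 lists 3 and 5. For these 3 genes the files carry no information on transcript choice.

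Of the 7 genes with several transcripts, 6 had the same leading transcript in both libraries. Among all detected genes with several transcripts the figure was 90.3%. The leaders were Dcc-202, Ntn1-201, Ntn4-201, Ntng2-204, Unc5a-202 and Unc5c-202, and all were protein-coding. Ntng1 was the exception. Ntng1-201 led in replicate 1 with 50.5%, against 23.2% in replicate 2, and Ntng1-208 led in replicate 2 with 62.1%, against 41.1% in replicate 1.

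**Figure D2:**
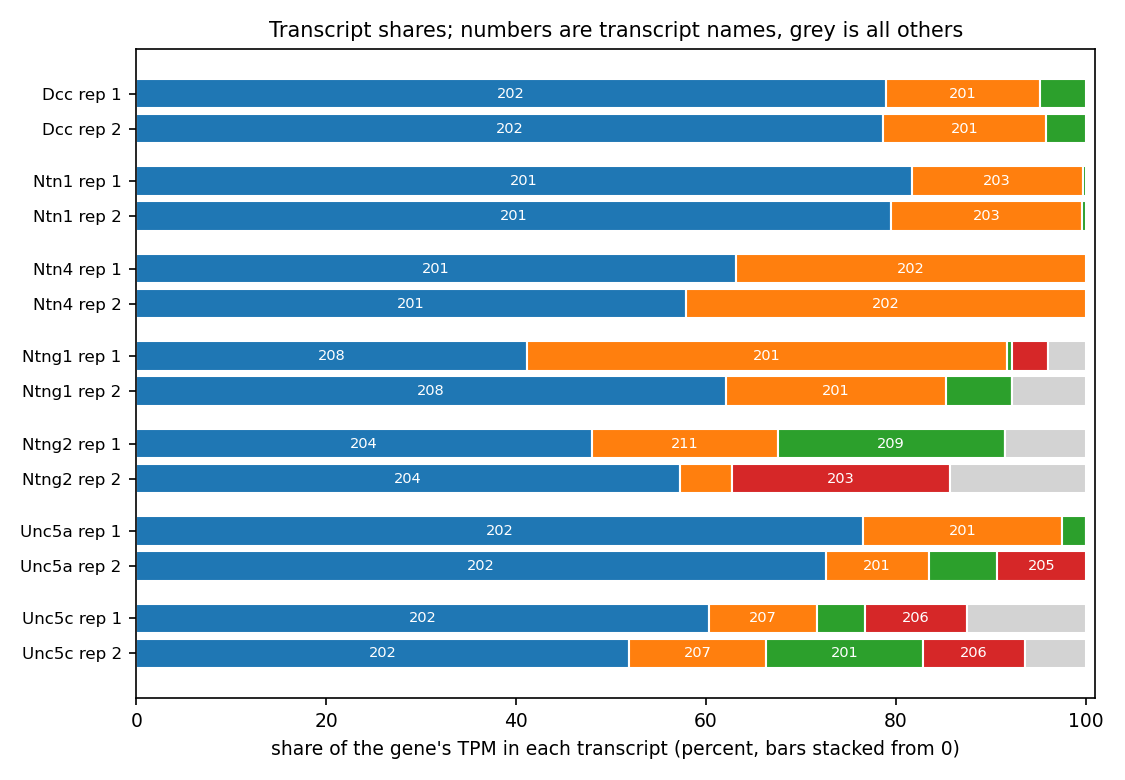
Share of each gene's TPM in each transcript (percent, stacked from 0) for the 7 genes with several transcripts, 1 bar per library; numbers are transcript names and grey is the sum of all but the leading 4. The Dcc bars nearly match, with Dcc-202 at 78.9% and 78.7%, while Ntng1-201 takes 50.5% of Ntng1 in replicate 1 and 23.2% in replicate 2.

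Ntng1-201 is a single-exon model of 327 nt (chromosome 3, 110143685 to 110144011) that lies wholly inside the first exon of Ntng1-208, which is 1112 nt long and precedes the exon with the start codon of that transcript. Its 50.5% and 23.2% came from only 28.8 and 8.11 expected counts, or 4.51% and 1.38% of the counts of Ntng1, since so short a transcript turns few fragments into a high TPM. Ntng1-208 itself was at 5.42 and 5.45 TPM. Over transcripts of 1000 nt or longer, Ntng1 was at 6.51 and 6.75 TPM, so the difference between the libraries on the TPM scale was no longer seen.

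Other short models acted on the levels in the same way. In Ntn1, Ntn1-203 (944 nt, of which 758 nt are shared with exons of Ntn1-201) held 18.0% and 20.2% of TPM from 137 and 122 counts. In Ntn4, Ntn4-202 (582 nt) held 36.9% and 42.1% from 9.14 and 9.19 counts. In Unc5c, transcripts under 1000 nt held 18.8% and 17.1% of TPM from 0.848% and 0.818% of counts. In Ntng2, whose 51.4 and 60.9 counts were spread over several transcripts, Ntng2-209 held 23.9% of TPM in replicate 1 from 5.72 counts and 0% in replicate 2, so its shares are not resolved at this depth. Without them Ntn4 was at 1.61 ± 0.148 TPM and Unc5c at 13.5 ± 0.269 TPM (SD, n = 2), and Unc5c remained the highest Unc5 gene.

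**Figure D3:**
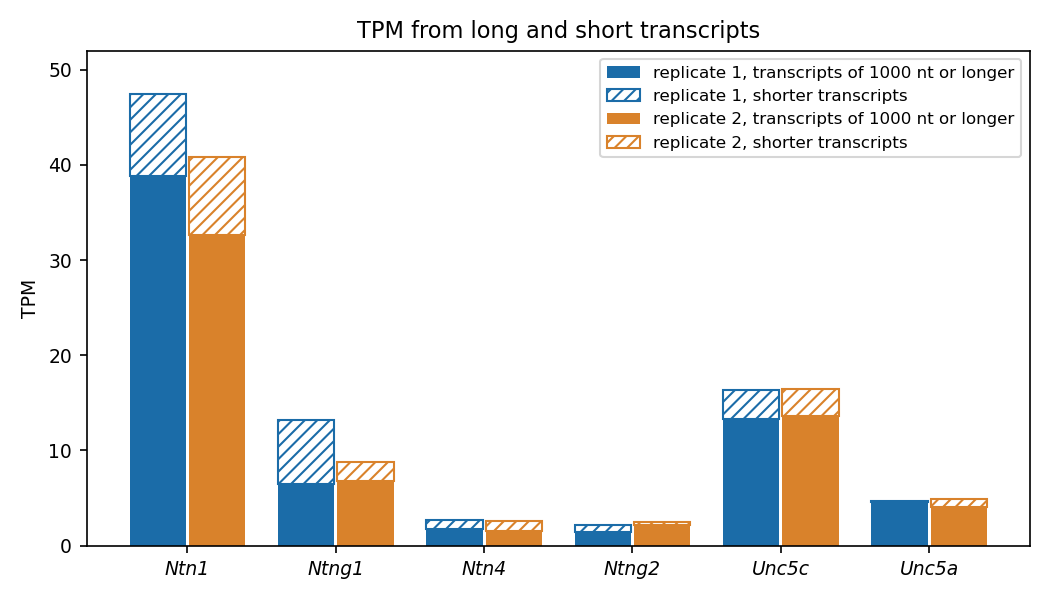
TPM of the 6 genes with counts in transcripts under 1000 nt, split into longer transcripts (filled) and shorter ones (hatched), for replicate 1 (blue) and replicate 2 (orange). The hatched part of Ntng1 is 6.65 TPM in replicate 1 and 2.03 TPM in replicate 2, while its filled part is 6.51 and 6.75 TPM.

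A cassette exon separates the leading transcript from another protein-coding transcript in each of Unc5a and Unc5c. Both exons are printed because they are a coding difference between those transcripts, with the exon in capitals and 15 bases of the neighbouring exons in lower case, 5′ to 3′, from the GENCODE M21 transcripts on mm10. The Unc5a exon is exon 6 of 16 of Unc5a-201 (chr13:54997193-54997360, plus strand, coding, 168 nt or 56 codons), and it codes for a thrombospondin repeat of the ectodomain. The Unc5c exon is exon 8 of 17 of Unc5c-201 (chr3:141786857-141786913, plus strand, coding, 57 nt or 19 codons). Both keep the reading frame. The Unc5a exon has 65.5% G and C, the Unc5c exon 38.6%.
Unc5a exon 6: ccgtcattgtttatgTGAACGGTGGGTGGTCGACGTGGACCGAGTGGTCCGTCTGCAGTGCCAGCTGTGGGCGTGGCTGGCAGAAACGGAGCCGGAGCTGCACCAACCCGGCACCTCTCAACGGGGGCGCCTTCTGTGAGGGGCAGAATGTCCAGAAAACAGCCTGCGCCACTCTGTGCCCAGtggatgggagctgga
Unc5c exon 8: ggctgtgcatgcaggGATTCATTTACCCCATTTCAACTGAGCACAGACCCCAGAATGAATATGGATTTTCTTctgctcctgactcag

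Transcripts without the exon prevailed in both genes. Unc5a-202, which skips the Unc5a exon, held 76.6% and 72.6% of Unc5a TPM, and Unc5a-201, which includes it, held 20.9% and 10.8%. Of the Unc5a TPM in transcripts that span the site, those including the exon made up 20.8% in replicate 1 and 12.0% in replicate 2. Unc5c-202, which skips the Unc5c exon, held 60.3% and 51.9% of Unc5c TPM. The tables give Unc5c-202 as 9298 nt and Unc5c-201 as 3890 nt, so these transcripts differ mostly outside the exon and their shares do not measure the exon alone. Of Unc5c TPM across the site, transcripts including the exon made up 13.7% and 24.2%. Unc5c-201, which includes it, held 5.11% and 16.55% of Unc5c TPM. Unc5c-205, annotated as a target of nonsense-mediated decay, gave 0.73 of the 1.57 including TPM in replicate 1 and 0.0 TPM in replicate 2. The libraries thus differed in opposite directions for the 2 exons, and neither difference was tested. The posterior standard deviations of the including transcripts were wide, 23.9 for the 71.9 counts of Unc5a-201 and 32.2 for the 60.1 counts of Unc5c-201 in replicate 1. The exons of Unc5a overlap those of the opposite-strand gene Hk3 by 34 nt, and those of Unc5c overlap the antisense gene Gm15688 by 118 nt. No source used here says if strand was kept, so reads of these pairs may be mixed.

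Between the pools, most of these genes differed by little. Counts were scaled by TMM (trimmed mean of M-values), and a two-sided exact binomial test was run for every gene, which allows for counting error only. It called 3 of the 10 genes at an adjusted p below 0.05, where it called 20.4% of all 19209 genes tested. Of the 3, 2 were lower in replicate 2 (background 9.68%) and 1 was higher (background 10.7%). The median log2 ratio of replicate 2 over replicate 1 was -0.105 over the 10 genes and -0.00194 over all genes tested. With 10 genes, 3 calls do not set the group apart from that background.

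Ntn1 was lower in replicate 2, with a log2 ratio of -0.26 (95% counting interval -0.33 to -0.20, adjusted p = 1.82e-13, exact binomial test). Unc5b was also lower, at -0.39 (-0.62 to -0.16, adjusted p = 0.00587, exact binomial test). Dcc was higher, at 0.14 (0.08 to 0.20, adjusted p = 3.35e-05, exact binomial test). With the variation between libraries added, as a common dispersion in the edgeR exact test, none of the 10 was called (background 1.57%) and none had an unadjusted p under 0.05 (background 6.69%). That dispersion was estimated from the same 2 libraries. The lowest unadjusted p was 0.0763, for Unc5b, and the adjusted p was 1.0 for Ntn1 and Dcc and 0.882 for Unc5b (edgeR exact test). The differences of Ntn1, Unc5b and Dcc were therefore larger than counting error, and did not pass once the spread between these pools was added. Scaled by spike-ins, which moved the median of all genes by -0.369, Dcc was at -0.23 and Neo1 at -0.31, so the direction of both depends on the scaling. Ntng2, which neither scaling called, was at 0.36 with TMM and -0.012 with spike-ins. With that scaling 9 of the 10 genes were called, all lower in replicate 2, where 67.7% of all genes were called, and 2.51% of all calls were higher, against 52.6% with TMM.

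The other 7 genes were not called by either test. Neo1 had a log2 ratio of 0.05 (95% counting interval -0.0021 to 0.11), Unc5c -0.10 (-0.20 to -0.0058) and Ntng1 -0.02 (-0.18 to 0.15). For these well-counted genes a ratio beyond 0.20 in either direction lay outside the interval. Unc5a was at -0.14 (-0.38 to 0.10) and Unc5d at -0.11 (-0.31 to 0.09). The intervals of Ntn4 (-0.57 to 0.21) and Ntng2 (-0.20 to 0.93) were the widest. The counts leave ratios within them open, and the smallest detectable difference was not computed.

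**Figure D4:**
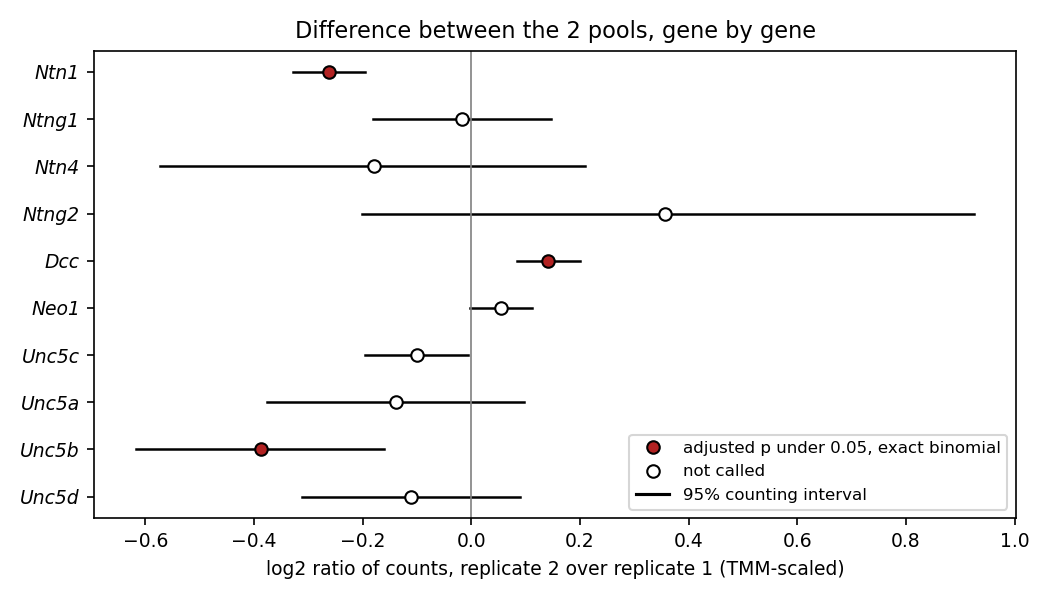
Log2 ratio of TMM-scaled counts, replicate 2 over replicate 1, with 95% counting intervals; red points have an adjusted p under 0.05 in the exact binomial test. Ntn1 (-0.26) and Unc5b (-0.39) lie below 0 and Dcc (0.14) above it with this scaling, and Ntng2 has the widest interval, -0.20 to 0.93.

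Markers of several cell types differed between the pools beside these genes, in deposited TPM. Counts of markers called lower or higher are by the exact binomial test, which called 9.68% of all genes lower and 10.7% higher in replicate 2. Floor plate markers, of which 10 of 10 reached 1 TPM in both libraries, summed to 318.5 TPM in replicate 1 and 230.4 in replicate 2. Of them 3 were lower in replicate 2 by the exact binomial test (Spon1, Sulf1 and Corin), and none with dispersion added. The floor plate signal Shh was at 4.86 and 3.96 TPM and the floor plate factor Foxa2 at 4.21 and 3.45 TPM, which the test did not call. Progenitor markers summed to 2916 and 2679 TPM, with 5 of 10 lower in replicate 2. Most of the floor plate sum was Sulf1, at 154.84 and 111.18 TPM, and Spon1, at 124.9 and 88.1 TPM. Lmx1b of that list was higher in replicate 2, at 4.09 and 4.51 TPM. In the progenitor list Nes, at 108.47 and 121.24 TPM, and Pax6, at 14.52 and 16.17 TPM, were higher. The other markers of both lists were lower in TPM. Both sums moved in the same direction as Ntn1, and the part of these cell types in its difference was not tested. Beside Unc5b, endothelial markers summed to 148.2 and 155.7 TPM, with 1 of 8 lower and 1 higher, and pericyte markers to 63.1 and 66.5 TPM, so neither sum was lower in replicate 2. Beside Dcc, neuron markers summed to 3894 and 4065 TPM, with 7 of 12 higher and 2 lower.

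Among markers of tissue around the brain, of blood and of the choroid plexus, the skeletal muscle and the epithelial and otic lists differed most in the ratio of sums. Skeletal muscle markers summed to 52.5 and 243.8 TPM, with 8 of 8 higher in replicate 2 also with dispersion added, and 7 of 8 reached 1 TPM in both. Mesenchyme and meninges markers summed to 1407 and 1823 TPM, with 7 of 8 higher. Cartilage markers summed to 515.5 and 585.0 TPM, with 6 of 6 higher, and Acan, Hapln1 and Matn1 were higher also with dispersion added. Ganglion and crest glia markers summed to 125.9 and 143.6 TPM, with 3 of 6 higher and Sox10 lower. Sox10, a factor of crest and glial cells, was at 15.4 and 9.60 TPM and was the list's 1 call with dispersion added (adjusted p = 0.0455, edgeR exact test). Choroid plexus markers summed to 381.1 and 452.2 TPM, with 3 of 6 higher. Epithelial and otic markers were lower in replicate 2, at 339.1 and 161.4 TPM, with 6 of 6 lower and 3 of them with dispersion added, and erythroid markers summed to 16990 and 13480 TPM, with 5 of 6 lower. No listed marker was at 0 in either library. Single markers were named for their known role or their call, after their values were seen. The part of each in the levels of the netrin and receptor genes was not tested.

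**Figure D5:**
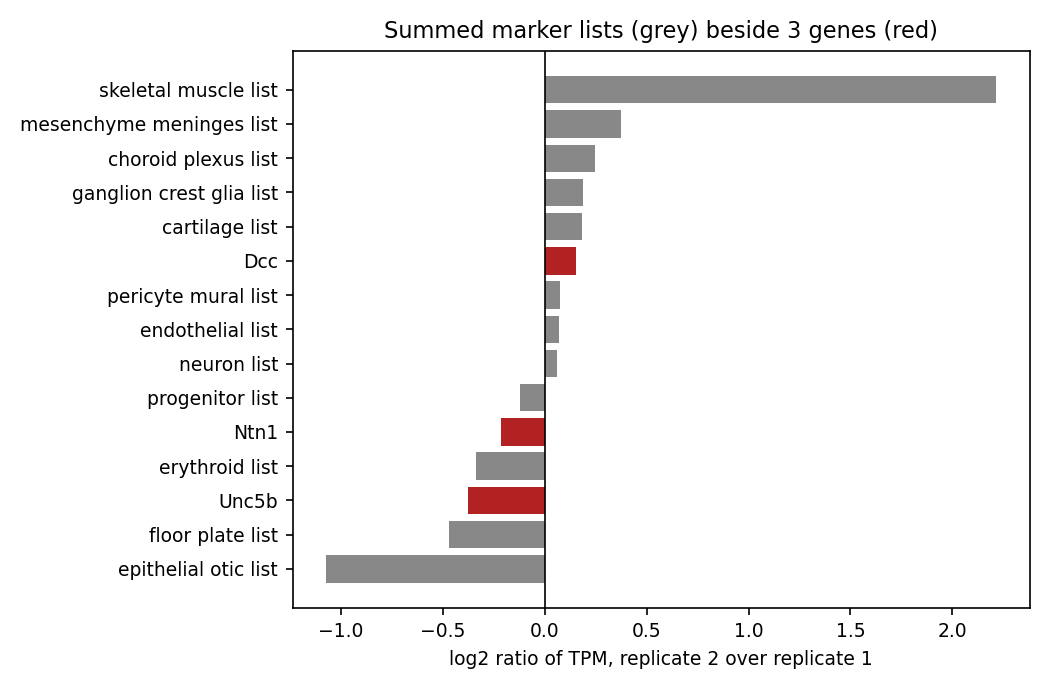
Log2 ratio of deposited TPM, replicate 2 over replicate 1, for the summed markers of each cell type (grey) and for Ntn1, Unc5b and Dcc (red). Ntn1 and Unc5b lie below 0 with the progenitor, erythroid, floor plate and epithelial and otic lists, and the skeletal muscle list, 52.5 and 243.8 TPM, is far above all others.

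Other genes listed for the netrin pathway were present throughout. Of 41 such genes in 4 lists, 40 reached 1 TPM in both libraries. The exception was the netrin Ntn5, at 0.56 and 1.00 TPM from 15.8 and 26.9 counts. Ntn3, the other netrin outside the group, was at 7.63 and 8.30 TPM, above Ntn4 and Ntng2 in each library. It was matched by its transcript identifier, since its gene identifier changed between annotation releases. The exact binomial test called 14 of the 41, 10 higher and 4 lower in replicate 2, where 20.4% of all genes were called. The edgeR exact test called none, with 2 at an unadjusted p under 0.05 and a lowest adjusted p of 0.272.

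Among 7 alternative ligands of the same receptors or partners of netrin signalling, 3 were higher in replicate 2 by the exact binomial test and none lower (background 10.7% and 9.68%). Rgmb, a repulsive guidance molecule that binds neogenin, was at 98.2 and 111 TPM and Rgma at 29.8 and 32.6 TPM. Flrt2 was at 41.2 and 49.3 TPM and Flrt3 at 36.1 and 38.4 TPM, both encoding membrane proteins that bind Unc5 receptors. Draxin, a secreted antagonist that binds both netrin-1 and Dcc, was at 9.46 and 10.3 TPM. Cbln4 was the lowest at 6.53 and 6.26 TPM. Rgmb lay above Ntn1 in each library, and its values did not overlap those of Ntn1. Those of Flrt2 did.

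Among 10 genes listed as coreceptors and partners of netrin-G, 2 were lower and 2 higher in replicate 2 by that test (background 9.68% and 10.7%). Igsf8 was highest in the list at 130 and 119 TPM, followed by Lingo1 at 26.6 and 27.9 TPM and Mcam at 11.3 and 12.5 TPM. No source used here gives a link of Igsf8 to netrins, and none was tested. Lrrc4c, the partner of netrin-G1, was at 8.88 and 8.58 TPM, and Lrrc4, the partner of netrin-G2, was at 3.73 and 2.88 TPM. Lrrc4 was among the lower 2, with 249 and 163 counts. Dscam, which can serve as a netrin-1 receptor, was at 2.25 and 2.48 TPM, far below Dcc, and its paralogue Dscaml1 was lowest at 1.67 and 2.57 TPM and was among the higher 2.

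The 22 cytoplasmic effectors had a median of 40.8 and 38.7 TPM, with 2 lower and 5 higher in replicate 2 (background 9.68% and 10.7%). Maged1, a binding partner of Unc5a, was at 779 and 820 TPM, and the small GTPases Cdc42 and Rac1, which drive growth cone actin, were at 543 and 560 TPM and at 254 and 274 TPM. The adaptor Nck1, which binds Dcc, was at 55.3 and 60.0 TPM, close to Dcc itself. The focal adhesion kinase gene Ptk2 was at 57.1 and 58.0 TPM. Trio, the exchange factor for Rac1 downstream of Dcc, was the lowest at 7.31 and 7.61 TPM, and Trim9, a ubiquitin ligase that binds Dcc, was at 13.3 and 12.4 TPM. Nck1, Ptk2, Trim9, Draxin, Rgma, Lrrc4c, Lrrc4 and Dscam were named for their place in the pathway and not for their rank in a list.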

How the data were processed

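Total RNA longer than 200 nt, from 10 ng per library, was sequenced by the authors from 2 pools of embryos, per the labels. The authors deposited expected counts, TPM and FPKM per gene and per transcript, and the share of each transcript as a percent, on mm10 with annotation M4, per the file headers and the deposited notes. The aligner and quantifier were not given in the sources used here. TPM is scaled over all entries, spike-ins included (8.39% and 10.9% of TPM in replicates 1 and 2). The TPM of a gene is the sum over its transcripts, so short models weigh heavily.

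Symbols and positions were read from GENCODE M21, also on mm10. Expected counts were rounded, genes with 10 or more summed counts were kept, and TMM factors and the common dispersion came from edgeR 4.0.16 (R 4.3.3). Binomial tests used scipy 1.17.1, adjusted by Benjamini-Hochberg across the whole gene table. Both tests were also run on simulated counts, and the recovery and false calls of those runs are not given here. Count intervals are exact (Clopper-Pearson). DESeq2 1.42.0 gave alternative size factors. Entries that name no gene held 0.000107% and 0.000114% of counts and were left out. All 10 genes were described; from each pathway list the 3 highest and the lowest gene, and any gene called with dispersion added, were named, and further genes are said to be so. Genes, lists and tests were chosen with earlier results of these data known. With 2 samples, no likeness of pattern between genes was computed.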

Additional observations from a re-analysis of the deposited data

How the results depend on the processing

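With dispersion added (edgeR exact test) the calls fell from 3 to 0 of the 10 genes and from 14 to 0 of the 41 pathway genes, and over all genes from 3921 to 301. Scaling by ERCC spike-ins shifted the median of all genes by -0.369 (log2) and moved the split of calls from 52.6% to 2.51% higher in replicate 2. Under it 9 of the 10 genes were called, each lower in replicate 2, and 35 of the 41. Dcc turned from 0.14 to -0.23 and Neo1 from 0.05 to -0.31, in each case above the shift of the median. Ntng2 also changed sign, from 0.36 to -0.012, uncalled in both. DESeq2 size factors, no filter on low counts and posterior mean counts left the same 3 genes called, and the pathway count at 13 or 14. The share of Ntn1 among netrins moved from 73.6% to 71.2% with posterior mean TPM and to 78.0% over transcripts of 1000 nt or longer, and the share of Unc5c among Unc5 genes from 61.0% to 57.4% over those transcripts. The cause of the shifts with spike-ins and posterior means was not tested. At 5 TPM, 5 of 10 genes counted as detected. Without either replicate, the Ntn1 share was 72.5% to 74.7%, the Unc5c share 60.1% to 62.0%, and the Dcc to Neo1 difference 0.42 to 0.51; overlap of ranges needs both libraries. With FPKM, 3 neighbouring pairs overlapped. With posterior mean TPM, Ntng2 stood above Unc5b. Over transcripts of 1000 nt or longer all 7 genes had the same leading transcript. No paired analysis was possible because there is 1 group. Depth limits Ntng2 and Ntn4 most.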
